A study of Mus musculus with 4 samples.

Results

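The receptors of the TGF-β superfamily were examined in ID8 cells, a mouse ovarian cancer cell line, after knockdown of USP9X, a deubiquitinase. The 10 receptor genes Tgfbr1, Tgfbr2, Tgfbr3, Acvr1, Acvr1b, Acvr2a, Acvr2b, Bmpr1a, Bmpr2 and Eng were taken by symbol from a deposited expression table of 22063 genes, and all 10 were listed there. The series holds 4 libraries of poly(A)-selected RNA, 2 from ID8 cells with a control shRNA (shCtrl) and 2 from ID8 cells with an shRNA against USP9X (shUSP9X). The labels give the genotype of the shCtrl cells as wild type and that of the shUSP9X cells as a USP9X knockdown. Both groups carry a lentiviral shRNA vector, so neither is the untouched parental line. The sources used here state neither which USP9X shRNA the sequenced cells carried, nor whether both shUSP9X libraries carried the same one, nor whether TGF-β1 was added. The methods give ordinary incubator culture for all cells and a low-oxygen setting for hypoxia experiments, without naming the sequenced cells. They also do not say whether the replicates were separate cultures, so p-values measure only the spread between these libraries, which may be technical. The total estimated count was 17232006 and 15611363 for shCtrl and 19978889 and 17021261 for shUSP9X.

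Ligands of this family bind a complex of type I and type II receptors, both of which are serine/threonine kinases. The type II receptor phosphorylates the type I receptor, which then phosphorylates Smad proteins that enter the nucleus with Smad4 and regulate transcription. Receptors for TGF-β and activin mainly pass the signal to Smad2 and Smad3, and receptors for BMPs mainly to Smad1, Smad5 and Smad9. The type III receptors Tgfbr3 (betaglycan) and Eng (endoglin) have no kinase domain and present ligand to the others. USP9X is known to remove ubiquitin from Smad4, and in ovarian cancer TGF-β signaling has been studied for its part in stemness and drug resistance.

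Usp9x itself (ENSMUSG00000031010, chromosome X of GRCm38, 13071498 to 13173328) had 298.1 and 281.6 CPM in the shCtrl libraries and 19.73 and 20.54 CPM in the shUSP9X libraries, where CPM is the count relative to library size after TMM scaling. Both knockdown libraries thus lay below both controls, by 14.4-fold (log2 fold change -3.85 ± 0.06 standard error, edgeR adjusted p = 4.7e-26). With an offset for GC content and length, described below, its log2 fold change was -2.34, with separate trends it was -2.68 and with GC content alone -3.09, so the size of the fall depends on that choice. Throughout, a gene is called lower or higher in shUSP9X cells at a Benjamini-Hochberg adjusted p under 0.05 in the quasi-likelihood test of edgeR, adjusted over the 11448 genes kept by a filter on low counts.

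Markers were used to check which cells the libraries held. Of 12 epithelial genes, 9 lay above the floor of 3 counts in every library, and the most abundant per length was Krt19, a keratin, at 448.9 and 457.1 FPKM in shCtrl and 493.4 and 471.5 FPKM in shUSP9X cells. Krt7, Epcam and Pax8 had at most 9 counts in any library. Of the 9 epithelial genes tested, 3 were lower and 4 higher. Of 11 endothelial genes, 4 lay above the floor in every library, while Cdh5, Kdr, Emcn, Cldn5 and Erg had 0 counts in all 4 libraries. The list summed to 117.0 and 129.0 CPM in shCtrl and 98.9 and 98.8 CPM in shUSP9X cells. Esam had the highest mean FPKM over the 4 libraries, while in shCtrl cells the mean of Flt1 was the higher, 15.2 against 14.6 FPKM. Of the 4 endothelial genes tested, 2 were lower and 1 higher. The leukocyte list of 10 genes summed to 4.38 and 4.36 CPM in shCtrl and to 10.4 and 9.02 CPM in shUSP9X cells, with Cd68 the most abundant and Cd3e at 0 throughout. Cd68, the only one above the floor in every library, was not called (adjusted p = 0.125), and Ptprc, Csf1r and Laptm5, which were called higher, passed the filter only through the shUSP9X libraries. Ptprc, which encodes the pan-leukocyte antigen CD45, had 0 and 0 counts in shCtrl and 29 and 18 counts in shUSP9X libraries. Csf1r, Tyrobp and Laptm5 were likewise above the floor of 3 counts in the shUSP9X libraries alone. Fibroblast genes had sums of 18.9 and 17.6 CPM against 4.35 and 5.52 CPM over 10 genes, of which Pdgfrb, Lum and Thy1 were at 0. Pdgfra, the most abundant of them, had 272 and 215 counts in shCtrl libraries against 34 and 39 in shUSP9X libraries, and was lower. It was the only one called of 3 tested and made up most of the sum in shCtrl cells. The part of these markers in the receptor values was not tested.

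Most of the receptor transcripts were lower in shUSP9X cells. Of the 10 receptors, 9 passed the filter on low counts, 6 were called lower (Tgfbr1, Tgfbr2, Acvr1b, Acvr2a, Bmpr1a and Bmpr2), and none was called higher. Acvr1, Acvr2b and Eng were not called, and Tgfbr3 had 0 counts in every library. Over all tested genes 33.6% were called lower and 33.8% higher, so a call in this comparison was common. The median log2 fold change was -0.40 over the 9 receptors and -0.00051 over all tested genes. At the cutoff of the study's methods, an unadjusted p under 0.05 with a fold change above 1.5, the lower receptors were Tgfbr1, Acvr2a, Bmpr1a and Bmpr2, 4 of the 9, and none was higher. Bmpr1a passed this fold change barely, and its log2 fold change fell short of it with upper quartile scaling (-0.56), with no filter beyond 1 count (-0.583), without shCtrl replicate 1 (-0.53) and without shUSP9X replicate 2 (-0.581). That cutoff took 18.7% of all tested genes as lower and 10.8% as higher. The shUSP9X values were both under the shCtrl values for 7 of the 9 receptors, as they did for 41.0% of all tested genes. In bulk RNA, fewer cells that express a receptor and less receptor RNA per cell cannot be told apart.

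A trend runs through the whole comparison, and how it was removed decided the call of up to 4 of the 6 lower receptors. Log2 fold changes rose with the GC content of the transcript, and 4 receptors, Tgfbr1, Acvr2a, Bmpr1a and Bmpr2, lie in the lowest decile of GC content, where the median log2 fold change was -0.88 and 82.2% of the genes were called lower. With the trends on GC content and length removed within each library by an offset, 2 receptors were lower (Acvr1b and Acvr2a), 1 was higher (Bmpr1a) and 6 were not called. With GC content and length removed as separate trends, Tgfbr2 and Bmpr2 stayed lower and Tgfbr1 did not, and with GC content alone removed, all of the 6 but Bmpr1a stayed lower. With the joint offset 27.4% of all tested genes were lower and 36.1% higher, and the median was -0.05 over the receptors and 0.05 over all genes. The offset also removes a real difference that runs along GC content or length, so a trend made in the cells and one made in the libraries cannot be told apart. Its value is given beside each tested receptor below.

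The 250 bases before the transcription start, taken from RefSeq for GRCm38.p6, are shown for Bmpr2, Acvr2a and Tgfbr1. These receptors had the lowest log2 fold changes in the main test. Capitals mark matches, on either strand, to the Smad box core CAGAC, the GC-rich Smad site GGCGCC, and the hypoxia response element cores ACGTG and GCGTG, of which the last pair differ in their first base only. GGCGCC reads the same on both strands. A capital stretch that is the reverse complement of a motif stands for a match on the other strand.
Bmpr2, chr1:59764029-59764278, plus strand: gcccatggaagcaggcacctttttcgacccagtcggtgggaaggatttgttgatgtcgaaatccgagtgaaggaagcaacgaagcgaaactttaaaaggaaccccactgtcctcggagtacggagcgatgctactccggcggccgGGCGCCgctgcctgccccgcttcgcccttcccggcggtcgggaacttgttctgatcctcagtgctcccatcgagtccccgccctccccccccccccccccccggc
Acvr2a, chr2:48813859-48814108, plus strand: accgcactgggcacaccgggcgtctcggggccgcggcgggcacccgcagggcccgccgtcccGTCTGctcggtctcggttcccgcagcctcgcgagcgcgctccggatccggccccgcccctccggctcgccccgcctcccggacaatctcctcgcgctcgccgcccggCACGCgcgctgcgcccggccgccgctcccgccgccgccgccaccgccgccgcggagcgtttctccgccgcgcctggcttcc
Tgfbr1, chr4:47352972-47353221, plus strand: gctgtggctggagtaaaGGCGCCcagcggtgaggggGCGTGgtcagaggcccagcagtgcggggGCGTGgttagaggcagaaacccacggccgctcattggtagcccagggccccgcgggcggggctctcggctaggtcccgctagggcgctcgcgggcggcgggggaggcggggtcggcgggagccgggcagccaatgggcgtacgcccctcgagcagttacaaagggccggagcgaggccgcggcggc
The Bmpr2 window lies inside the gene as GENCODE draws it, since the RefSeq start is downstream of the GENCODE start at 59763400. GC content was 64.0% in the Bmpr2 window, 82.0% in that of Acvr2a and 74.8% in that of Tgfbr1, while the transcripts of these genes have between 39.9 and 41.0% GC. Of the 10 receptors, 9 had a window and Tgfbr1 had 2, which makes 10 windows. GGCGCC occurred in 3 of them (Bmpr1a, Bmpr2 and Tgfbr1) and in 9.59% of 32851 promoter windows of the same length. CAGAC occurred in 5 of the 10 and in 42.2% of all windows, GCGTG in 6 of the 10 and in 28.2%, and ACGTG in 1 of the 10, that of Acvr1b, and in 16.6%. The CAGAC match of Tgfbr1 lies in its other window, which is not printed. The receptor windows had between 52.8 and 85.6% GC, and the windows they are set beside were not matched for GC content. A match describes letters and is not a bound site.

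**Figure D1:**
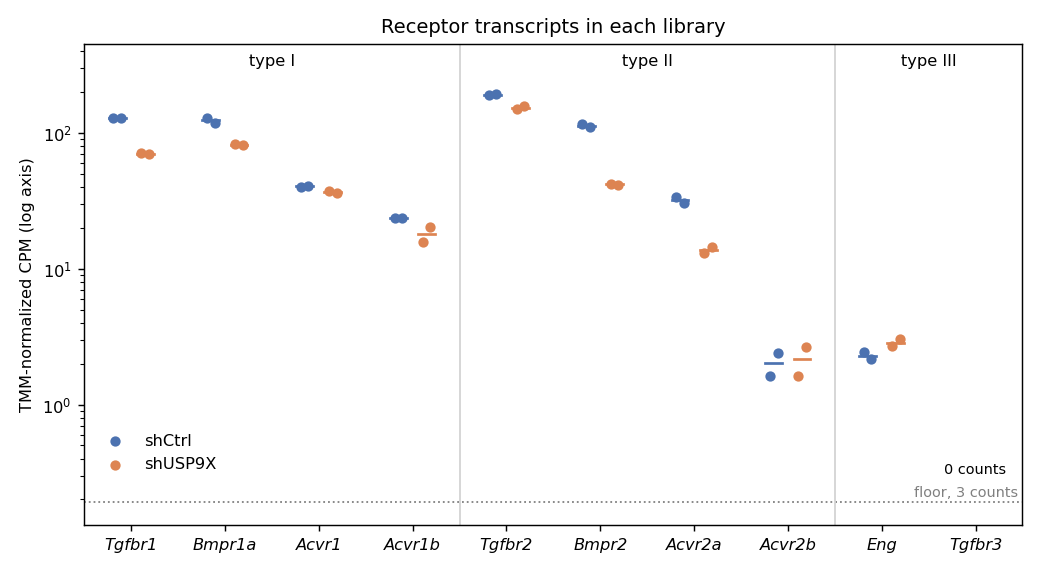
TMM-normalized CPM (log axis) of the 10 receptor genes in the 2 shCtrl (blue) and 2 shUSP9X (orange) libraries, with a bar at each group mean and a dotted line at the highest floor, 0.192 CPM. The groups are apart for Tgfbr1, Bmpr1a, Bmpr2 and Acvr2a, lie close for Acvr1, and overlap for Acvr2b, while Tgfbr3 had 0 counts.

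Among the type I receptors, Tgfbr1 (ENSMUSG00000007613, chromosome 4, 47353222 to 47414931), the kinase that TGF-β activates and that phosphorylates Smad2 and Smad3, had 128.7 and 129.3 CPM in shCtrl and 70.37 and 70.04 CPM in shUSP9X libraries. The replicates were nearly equal and the groups far apart. Tgfbr1 was 1.84-fold lower (log2 fold change -0.88, standard error 0.05, 95% confidence interval -0.98 to -0.77, adjusted p = 3.5e-14). With the offset its log2 fold change was -0.05 (adjusted p = 0.376), and with GC content alone removed it was -0.23 and still lower (adjusted p = 3.2e-04). The main value equals the median of its GC decile, -0.88.

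Bmpr1a (ENSMUSG00000021796, chromosome 14, 34410734 to 34503341), a type I receptor for BMP2 and BMP4 also known as ALK3, had 127.8 and 118.8 CPM in shCtrl and 81.96 and 81.37 CPM in shUSP9X libraries. Every shCtrl value was above every shUSP9X value, and the spread was wider within shCtrl. Bmpr1a was 1.51-fold lower (log2 fold change -0.60, standard error 0.05, adjusted p = 1.5e-10). With the offset the direction turned and Bmpr1a was higher, with a log2 fold change of 0.22 (95% confidence interval 0.12 to 0.32, adjusted p = 2.5e-04). Its fall was thus smaller than the trend at its GC content and length. The exons of Bmpr1a overlap those of Gm17110 on the opposite strand, a gene without values here.

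Acvr1b (ENSMUSG00000000532, chromosome 15, 101174067 to 101213684), the activin receptor ALK4, had 23.76 and 23.78 CPM in shCtrl and 15.73 and 20.36 CPM in shUSP9X libraries. The shCtrl libraries agreed closely, while the shUSP9X libraries differed from each other by more than they did for Tgfbr1 or Bmpr1a. Acvr1b was 1.32-fold lower (log2 fold change -0.40, standard error 0.11, adjusted p = 0.0031). Without shUSP9X replicate 1 the log2 fold change was -0.22 and Acvr1b was not called (adjusted p = 0.168), so the call rests on that library. It was the only type I receptor called lower with the offset, at -0.50 (adjusted p = 2.4e-04), and its transcript, with 53.5% GC, lies in a decile whose median log2 fold change was 0.18.

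Acvr1 (ENSMUSG00000026836, chromosome 2, 58388644 to 58567157), known as ALK2, which acts for BMPs, had 39.91 and 40.60 CPM in shCtrl and 37.18 and 36.15 CPM in shUSP9X libraries. The groups did not overlap, yet the difference did not pass the threshold (log2 fold change -0.13, standard error 0.08, 95% confidence interval -0.29 to 0.02, adjusted p = 0.128). The interval leaves room for a fall of up to 0.29 and for no change. With the offset Acvr1 was at -0.15 (adjusted p = 0.0826).

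Among the type II receptors, Bmpr2 (ENSMUSG00000067336, chromosome 1, 59763400 to 59879014), which binds BMPs and whose upstream window is printed above, had 115.2 and 110.8 CPM in shCtrl and 42.24 and 41.43 CPM in shUSP9X libraries. It was the lowest of the 9 receptors in the main test, 2.70-fold down (log2 fold change -1.43, standard error 0.06, 95% confidence interval -1.55 to -1.31, adjusted p = 1.8e-17). Its transcript is the longest of the members at 12899 bases, in the longest decile of the genes (median log2 fold change -0.44), and has 41.0% GC. With the joint offset its log2 fold change was 0.05 (adjusted p = 0.444). With GC content and length removed as separate trends it was -0.35 (adjusted p = 2.7e-06), and with GC content alone removed it was -0.79, so the value depends on how the trend is drawn for so long a transcript.

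Acvr2a (ENSMUSG00000052155, chromosome 2, 48814109 to 48903269), a type II receptor for activins that also binds some BMPs, had 33.79 and 30.29 CPM in shCtrl and 13.05 and 14.48 CPM in shUSP9X libraries. Both groups spread by a few CPM and did not overlap. Acvr2a was 2.33-fold lower (log2 fold change -1.22, standard error 0.11, adjusted p = 1.1e-10), and it was lower with the offset too, at -0.29 (95% confidence interval -0.51 to -0.08, adjusted p = 0.0141). Its exons overlap those of Orc4 on the opposite strand, whose counts were 614.77 and 462.61 in shCtrl and 297.71 and 311.12 in shUSP9X libraries. The counts of both genes are not whole numbers, and since the strand of the libraries is not stated, reads of Acvr2a and Orc4 cannot be told apart there.

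Tgfbr2 (ENSMUSG00000032440, chromosome 9, 116084293 to 116175360), which binds TGF-β and recruits Tgfbr1, had 189.1 and 191.6 CPM in shCtrl and 150.3 and 156.2 CPM in shUSP9X libraries. The groups were apart, by less than for its partner Tgfbr1. Tgfbr2 was 1.24-fold lower (log2 fold change -0.31, standard error 0.04, 95% confidence interval -0.40 to -0.22, adjusted p = 6.7e-07), an interval that does not meet that of Tgfbr1. With the joint offset its log2 fold change was 0.01 (adjusted p = 0.762), with separate trends it was -0.13 (adjusted p = 0.0064), and with GC content alone removed it was -0.39 (adjusted p = 8.5e-08). Tgfbr1 stood at -0.10 with separate trends and at -0.23 with GC content alone removed, above Tgfbr2 in both. Which of the pair fell further thus depends on that choice.

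Acvr2b (ENSMUSG00000061393, chromosome 9, 119402118 to 119434995), the other activin type II receptor, was near the limit of what these libraries can compare, with 28 and 38 counts in shCtrl and 32 and 45 counts in shUSP9X libraries. The groups overlapped. Its log2 fold change of 0.09 had a 95% confidence interval of -0.63 to 0.80 (adjusted p = 0.840), and it was -0.09 with the offset (adjusted p = 0.822), so a change of the size seen for Tgfbr2 was not detectable at this depth.

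Of the type III receptors, Eng (ENSMUSG00000026814, chromosome 2, 32646595 to 32682669), a co-receptor best known from endothelial cells, had 42 and 34 counts in shCtrl and 53 and 51 counts in shUSP9X libraries. In the main test it had the highest log2 fold change of the receptors, 0.31 (standard error 0.29, 95% confidence interval -0.29 to 0.92, adjusted p = 0.354), and was not called. With the offset it was 0.14 (adjusted p = 0.686), below Bmpr1a at 0.22. Eng also lay below Acvr2b without shCtrl replicate 2 and without shUSP9X replicate 1. Its exons overlap those of Fpgs on the opposite strand, which had 492 and 451 counts in shCtrl libraries against 1114 and 931 in shUSP9X libraries. The counts of Eng and Fpgs were whole numbers, unlike those of Acvr2a and Orc4. Since the strand of the libraries is not stated, reads where Eng and Fpgs overlap cannot be told apart by strand. Tgfbr3 (ENSMUSG00000029287, chromosome 5, 107106570 to 107289629) was at 0 counts in all 4 libraries, which allows a level of up to 0.174 and 0.192 CPM in shCtrl and 0.150 and 0.176 CPM in shUSP9X libraries, for counting error only. Its exons overlap those of Gm43422 on the same strand, a gene without values here, and how reads of that overlap were counted is not given in the sources used here.

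**Figure D2:**
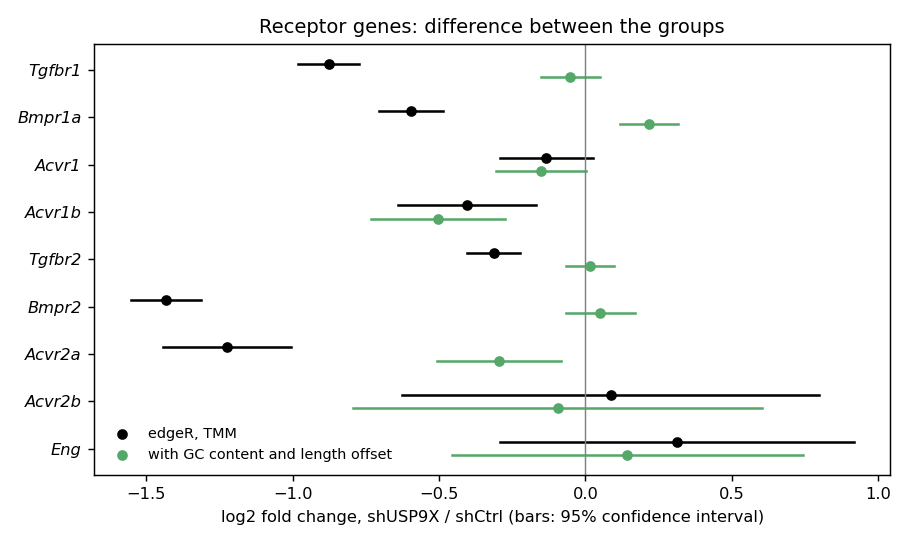
Log2 fold change (shUSP9X over shCtrl, x axis) of the 9 tested receptors with 95% confidence intervals, from edgeR with TMM scaling (black) and after adding the offset for GC content and length (green). The black values of Tgfbr1, Bmpr1a, Tgfbr2, Bmpr2 and Acvr2a lie left of 0, while with the offset Bmpr1a lies right of 0 at 0.22 and Acvr1b stays left at -0.50.

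Over the 9 tested receptors, transcripts poorer in GC had lower log2 fold changes. Spearman's rho between GC content and log2 fold change was 0.883 (Pearson's r = 0.887) over the receptors and 0.447 over 11430 genes, and with length it was -0.717 over the receptors and -0.331 over all genes. These are descriptions across genes of the same 4 libraries, and genes are not independent replicates. Tgfbr1, Acvr2a, Bmpr1a and Bmpr2 have between 39.9 and 41.3% GC. Tgfbr2 and Acvr1 have 49.6 and 48.7% GC, in a decile with a median of 0.06, Acvr2b has 54.4% and Eng 57.4%. Bmpr2 and Acvr2a lay below the median of their decile, Bmpr1a above it. Tgfbr2, Acvr1, Acvr1b and Acvr2b lay below theirs as well, and Eng above.

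**Figure D3:**
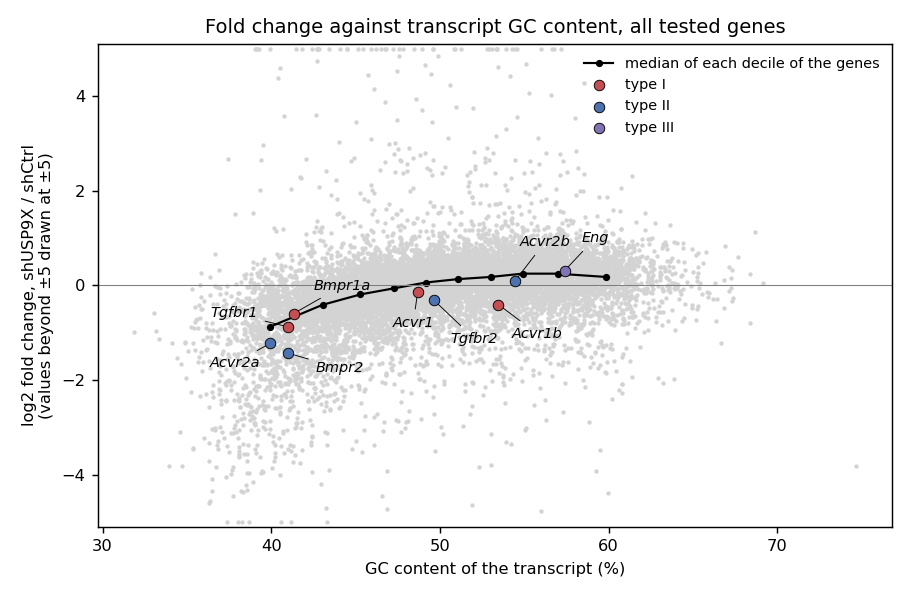
Log2 fold change (shUSP9X over shCtrl) against the GC content of the transcript in percent, for all tested genes (grey), the median of each decile of the genes (black line) and the 9 tested receptors (type I red, type II blue, type III purple). The line rises from -0.88 in the lowest decile of GC content, where Tgfbr1, Acvr2a, Bmpr1a and Bmpr2 lie, to 0.25 where Eng lies.

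Levels of different receptors were compared per length, as the FPKM values that the authors deposited. In shCtrl cells Tgfbr2 had the highest level at 38.5 ± 1.76 FPKM (mean ± SD, n = 2 libraries here and below). By counts divided by 1 transcript length per gene its lead over Tgfbr1 was smaller, 23.5 against 22.4 CPM per kilobase. Tgfbr1 (24.6 ± 0.349 FPKM) and Bmpr1a (23.1 ± 2.45 FPKM) came next, and their libraries overlapped. Acvr1 followed at 14.6 ± 0.550 FPKM and Bmpr2 at 8.84 ± 0.201 FPKM. Acvr2a (5.69 ± 0.412 FPKM) and Acvr1b (5.43 ± 0.0283 FPKM) overlapped, as did Acvr2b (0.772 ± 0.199 FPKM) and Eng (0.698 ± 0.0636 FPKM), and Tgfbr3 was listed at 0.

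In shUSP9X cells Tgfbr2 was again first at 30.1 ± 1.35 FPKM. Bmpr1a (14.9 ± 1.32 FPKM) and Acvr1 (13.8 ± 0.504 FPKM) overlapped, and Tgfbr1 stood next at 13.4 ± 0.0785 FPKM, so Acvr1 was above Tgfbr1 on this scale. Counts divided by 1 transcript length per gene gave the opposite order of that pair, 12.2 CPM per kilobase for Tgfbr1 and 11.1 CPM per kilobase for Acvr1. Acvr1b (4.04 ± 0.734 FPKM) was above Bmpr2 (3.21 ± 0.0431 FPKM) and Acvr2a (2.40 ± 0.174 FPKM). In shCtrl cells Bmpr2 had stood above Acvr1b. Eng (0.852 ± 0.0643 FPKM) and Acvr2b (0.769 ± 0.281 FPKM) overlapped at the low end.

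Tgfbr2 took a larger share of the type II receptor transcripts in shUSP9X cells. Of the summed CPM per kilobase of the type II receptors, which here include Amhr2, the receptor for anti-Müllerian hormone, Tgfbr2 made up 55.6 and 57.5% in shCtrl and 74.2 and 73.2% in shUSP9X libraries. Bmpr2 went from 21.2 and 20.9% to 13.1 and 12.2%, Acvr2a from 14.1 and 12.9% to 9.17 and 9.66%, and Amhr2 from 7.85 and 6.82% to 1.46 and 1.74%. The type II sum itself was 42.1 and 41.2 CPM per kilobase in shCtrl and 25.0 and 26.4 in shUSP9X libraries. Among type I receptors the share of Acvr1 was 19.8 and 20.5% in shCtrl and 27.6 and 26.5% in shUSP9X libraries, that of Tgfbr1 was 36.4 and 37.3% against 29.9 and 29.3%, and that of Bmpr1a was 35.0 and 33.1% against 33.6 and 32.9%. The type I sum was 61.4 and 60.2 CPM per kilobase against 40.9 and 41.5. The groups did not overlap for the shares of Tgfbr2, Bmpr2, Acvr2a, Acvr2b, Amhr2, Acvr1 and Tgfbr1, nor for that of Acvrl1, which had at most 2 counts. Acvr2b went from 1.21 and 1.84% to 2.04 and 3.19%, while its own CPM overlapped between the groups and the type II sum was lower. No figure over all tested genes stands beside these shares. As 2 libraries against 2 allow no exact permutation p below 0.333, no test is given. The shares carry no correction for GC content or length. With the joint offset the log2 fold changes of Tgfbr2 (0.01) and Bmpr2 (0.05) were alike in size and neither was called. Acvr2a (-0.29) and Amhr2 (-3.16) were lower with it. With separate trends Tgfbr2 was at -0.13 and Bmpr2 at -0.35. With GC content alone removed they were at -0.39 and -0.79. From FPKM the share of Tgfbr2 was 66.3 and 58.2% in shCtrl and 81.9 and 81.3% in shUSP9X libraries.

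**Figure D4:**
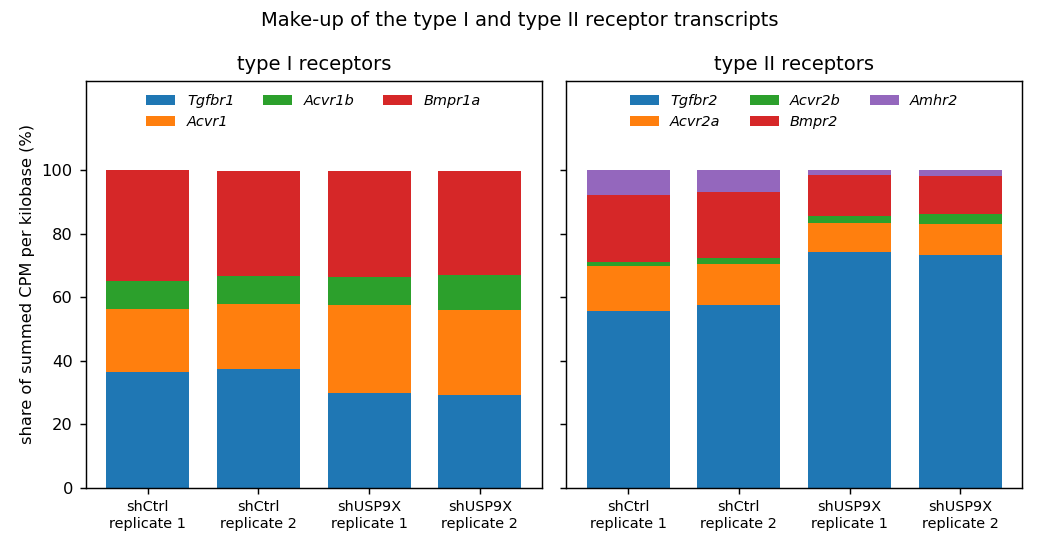
Share (percent) of each gene in the summed CPM per kilobase of the type I receptors (left) and type II receptors (right) in each of the 4 libraries, with genes under 0.5% in every library not drawn. Tgfbr2 takes 55.6 and 57.5% of the type II sum in the shCtrl and 74.2 and 73.2% in the shUSP9X libraries.

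Bmpr2 was the lowest receptor in the main test. The genes with a pattern over the 4 libraries most like that of Bmpr2 were Hsp90b1, Hspa12a and Fancm, by Euclidean distance in centred log2 CPM. Hsp90b1, a chaperone of the endoplasmic reticulum, had 1435 and 1383 CPM in shCtrl and 529.5 and 518.7 CPM in shUSP9X libraries (log2 fold change -1.43, distance 0.0046). Hspa12a and Fancm had log2 fold changes of -1.40 and -1.46. Those most like Eng, the highest in the main test, were Dtna, Adat1 and Klhdc7a. None of these was called, with log2 fold changes of 0.27, 0.32 and 0.29. With 4 libraries in 2 groups, likeness mainly means a like difference between the groups.

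Other receptors and co-receptors of the family were mostly at or near 0. Of 14 listed, Acvr1c, Tdgf1, Cfc1, Hjv and Gfral had 0 counts, Acvrl1 had at most 2 counts and Bmpr1b at most 5 counts in any library, and Bambi, a decoy receptor, had 15 and 4 counts in shCtrl libraries against 1 and 1 in shUSP9X libraries. Of the 6 tested, 2 were lower and 2 higher. Amhr2 had 111 and 86 counts in shCtrl libraries against 14 and 15 in shUSP9X libraries. Its log2 fold change of -2.89 (standard error 0.31, adjusted p = 5.0e-09) was lower than that of any of the 9 tested receptors. With the offset Amhr2 was lower as well, at -3.16. Nrp1, a co-receptor shared with semaphorins and VEGF, was lower (-0.65), and Rgmb (0.43) and Neo1 (0.15), a BMP co-receptor and a receptor for such co-receptors, were higher. Rgma had a log2 fold change of -0.81 (adjusted p = 0.0833) and Cd109, which binds TGF-β, one of -0.10 (adjusted p = 0.225). With the offset 3 of the 6 were lower and 3 higher.

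Among the ligands, 11 of 31 passed the filter, and 8 were lower and 1 higher, with a median log2 fold change of -0.35. The activin subunit genes Inhba (-1.90) and Inhbb (-1.45) were the lowest. Inhba had 461 and 410 counts in shCtrl libraries against 134 and 123 in shUSP9X libraries. Tgfb1 was higher (0.44), with 545 and 525 counts against 856 and 748, while Tgfb2 (-0.66) and Tgfb3 (-0.35) were lower. Bmp4, the most abundant ligand per length, was lower by less (-0.21). The counts were 8 lower and 1 higher with the offset too, where Inhba was at -1.06, above Inhbb (-1.53) and Gdf6 (-1.47).

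Of 23 genes for secreted antagonists and latency proteins, 14 were tested, with 10 lower and 1 higher and a median of -0.30. The BMP antagonists Grem1 (-1.51) and Chrd (-1.33) were the lowest, and Ltbp1, which tethers latent TGF-β, was higher (0.69). Bgn, a matrix proteoglycan and the most abundant of the list, was lower by 0.08 on the log2 scale. With the offset 8 were lower and 2 higher.

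All 8 Smads were tested, with 4 lower and 1 higher and a median of -0.13. The inhibitory Smad7 was lower (-0.75, adjusted p = 7.5e-08), as were Smad9 (-0.56), Smad5 (-0.18) and the inhibitory Smad6 (-0.19). Smad3 was higher (0.27, adjusted p = 1.1e-05). Smad1 (0.10), Smad2 (-0.07) and Smad4 (-0.05) were not called. With the offset 2 were lower, Smad6 and Smad7, and 3 were higher, with Smad5 turning to 0.37 and Smad2 reaching 0.60 beside Smad3 at 0.21.

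Of 25 genes known to act on the receptors or next to them, all tested, 13 were lower and 7 higher, with a median of -0.12. Xiap, a ubiquitin ligase (-1.23), and Zfyve16, an endosomal Smad anchor also named endofin (-1.17), were the lowest. Pmepa1, a TGF-β-induced inhibitor (0.60), and Usp4, a deubiquitinase of TGFβRI (0.50), were the highest. Ppp1ca, a phosphatase subunit and the most abundant of the list, was higher (0.28). With the offset 5 were lower and 9 higher, Zfyve16 was at -0.26 (adjusted p = 0.0447), and Xiap was at 0.15 and not called (adjusted p = 0.0551).

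Among 15 genes that TGF-β is known to regulate, 12 were tested, with 6 lower and 4 higher and a median of -0.09. The matrix genes Col1a1 (-1.72) and Fn1 (-1.55) were lower, while the repressor gene Tgif1 was higher (0.87). Fn1, the most abundant of them, had 26826 and 25023 counts in shCtrl libraries against 10291 and 9253 in shUSP9X libraries. The offset left 4 lower and 4 higher. Of 10 BMP target genes, 5 were tested and all 5 were lower, with a median of -0.54. Id1 (-0.54), Id2 (-0.53) and Id3 (-0.68), which encode inhibitors of differentiation, Atoh8 (-0.67) and Runx2 (-0.20) made up this group. With the offset 4 were lower and none higher, and Runx2 was not called.

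Counted once each, the genes of these 7 lists numbered 126, of which 81 were tested, 48 lower and 16 higher (median log2 fold change -0.21). The share called lower was 59.3%, beside 33.6% of all tested genes, and the share called higher 19.8%, beside 33.8%. With the offset the counts of the 81 were 34 lower and 22 higher (median -0.10), where 27.4% of all tested genes were lower and 36.1% higher.

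**Figure D5:**
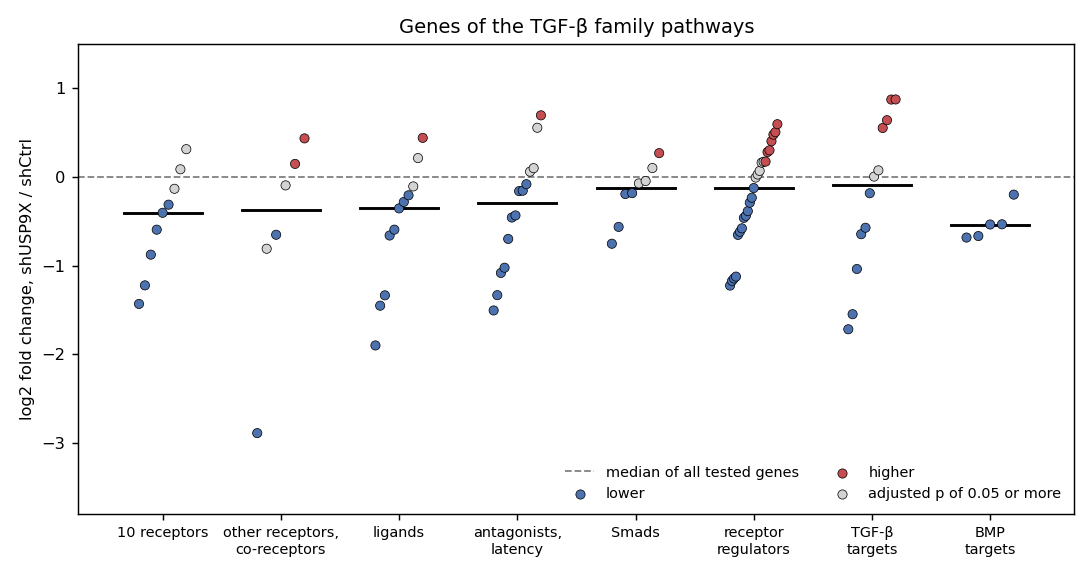
Log2 fold change (shUSP9X over shCtrl) of every tested gene in the 10 receptors and the 7 pathway lists, blue where lower, red where higher and grey where not called, with a bar at each median and a dashed line at the median of all tested genes. All 5 tested BMP targets lie below 0, and the receptor regulators spread from -1.23 for Xiap to 0.60 for Pmepa1.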

How the data were processed

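Poly(A)-selected RNA of 2 shCtrl and 2 shUSP9X ID8 libraries, grouped by their labels, was analysed from 1 deposited table of 22063 genes. According to the methods, reads were mapped to GRCm38 and analysed with StringTie and DESeq2. The submitters' processing notes name fastp 0.18.0, Bowtie2 2.2.8, HISAT2, StringTie 1.3.1 and RSEM, without roles. The authors deposited estimated counts, not normalized, of which between 6.4 and 6.69% per library were not whole, and these were rounded. The authors also deposited FPKM values, scaled for length and depth. A floor of 3 counts per library covers counting error only. At 0 in all libraries were 7085 genes.

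The test had been planned for whole counts and was kept after rounding. Genes were filtered with filterByExpr, scaled by TMM and compared in edgeR 4.0.16 with R 4.3.3, by its quasi-likelihood test (two-sided, Benjamini-Hochberg over 11448 genes, common biological coefficient of variation 0.0352). Confidence intervals are 95%. Replicates differed by more than sampling noise (chi-square per gene 3.41 for shCtrl, 2.23 for shUSP9X). Coordinates, GC content and length are of the longest protein-coding transcript in GENCODE M21, which holds 21973 of the table's genes, and were known for 99.8% of the tested genes. The offset is a robust loess trend (span 0.3) on both per library. Promoter windows are RefSeq's, matched by symbol.

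Alternatives were DESeq2 1.42.0, other scalings and filters, limma-trend (limma 3.58.1) on log2(FPKM + 1) and log2(FPKM + 0.1), a replicate block, the offset, and each library left out. Offsets with separate trends and with GC content alone were added after seeing the data. The test was also run on simulated counts with and without a trend on GC content, and the joint offset on those with it. The simulated counts held no trend on length, so the removal of a length trend was not tested. The members, the lists (other receptors, ligands, antagonists and latency, Smads, receptor regulators, TGF-β targets, BMP targets, and epithelial, endothelial, leukocyte and fibroblast markers) and the tests were chosen with earlier results of these data known. From each pathway list the text names up to 2 lowest and 2 highest log2 fold changes among called genes with groups that do not overlap and a log2 CPM averaging 2 or more, and the most abundant gene per length, besides all Smads and all other receptors. A gene that this rule names is not reported here. For the lowest and the highest receptor it names the 3 nearest genes in log2 CPM (prior count 2). Tgfb2, Tgfb3, Id2, Runx2, Gdf6, the exon neighbours, and marker genes other than those at 0 and the most abundant were named after their values were seen.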

Additional observations from a re-analysis of the deposited data

How the results depend on the processing

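The number of receptors called lower was 5 or 6, with 0 higher, under DESeq2, the other scalings, the filters, the FPKM tests, the replicate block and each library left out. Acvr1b was the receptor lost, in the fit without shUSP9X replicate 1 and in log2(FPKM + 1) over genes with any FPKM (-0.36, adjusted p = 0.0992). With the offset, and with the block and the offset together, 2 were lower and 1 higher in each. With separate trends 5 were lower and 1 higher, with Acvr1 now called (-0.19, adjusted p = 0.0273) and Tgfbr1 not (-0.10, adjusted p = 0.0734), and with GC content alone 5 were lower and none higher. The median over the receptors, -0.40 in the main test, was -0.0509 with the offset, -0.0506 with the block and the offset, -0.17 with separate trends, -0.23 with GC content alone, and -0.60 and -0.63 over the 7 receptors with a mean FPKM of at least 1 with log2(FPKM + 1) and log2(FPKM + 0.1). It lay between -0.58 and -0.28 with each library left out.

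Among the called receptors, directions turned for Tgfbr2, Bmpr1a and Bmpr2. They stood at 0.015 (Tgfbr2), 0.218 (Bmpr1a) and 0.0517 (Bmpr2) with the offset and at 0.015, 0.218 and 0.051 with the block and the offset. Bmpr1a stood at 0.155 with separate trends and at 0.0124 with GC content alone. Acvr2b, never called, lay between -0.295 and 0.421 over all alternatives. The cause of these shifts was not tested beyond the construction of the offsets. With the offset 56.9% of the called genes were higher, against 50.1% in the main test.

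Samples with the same replicate number did not deviate together (correlation of -0.029 over 7797 genes). A single contrast per group cannot exclude a paired design, and the labels do not say whether the samples were paired. With the replicate block 6 receptors were lower and none higher, their median was -0.41, and 3810 of all genes were lower and 3855 higher. At the study's cutoff 2143 of all genes were lower and 1233 higher, and 25 and 5 of the pathway genes.

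Depth limits Acvr2b and Eng, with under 60 counts per library, and 2 libraries a group limit every p-value.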

Other observations

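For some genes the deposited FPKM values and counts moved apart between libraries of a group. Amhr2 had 3.32 and 13.5 FPKM in the shCtrl libraries, which held 111 and 86 counts. Esam, an endothelial adhesion gene, had 5.45 and 23.8 FPKM in the same libraries with 165 and 204 counts, and 15.5 and 14.2 FPKM with 548 and 436 counts in the shUSP9X libraries. Levels of these genes per length therefore depend on which of the deposited measures is read.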
